A study of Saccharomyces cerevisiae with 18 samples.

Results

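The comparison described here follows yeast cells without potassium through the second hour: the 4 arrays labelled 120 min were set against the 4 arrays labelled 60 min, gene by gene. These are 8 of the 18 two-colour arrays of the study, which also sampled 10, 20 and 40 min. Of the 6212 genes on the table, 3939 had values on at least 3 of 4 arrays at both times, and all 3939 were compared. The question was which of the gene groups displaced at 60 min returned towards the potassium-fed culture, which stayed displaced and which were displaced only at 120 min.

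All cells were wild-type Saccharomyces cerevisiae of strain BY4741, a haploid laboratory strain of mating type a. In this strain HIS3, LEU2, MET17 and URA3 are deleted in full or in part. On every array, RNA of cells in Translucent K-free medium (residual potassium about 15 µM) was set against RNA of cells in that medium with 50 mM KCl added. Per the labels, each culture had already reached an absorbance of 0.6 in its own medium (28 °C) before it was spun down, washed and put back into that medium for 60 or 120 min. The K-free culture is thus described as K-free before the wash too, whereas the series text speaks of a sudden shortage. Each of the 2 time points compared was taken to hold 2 independent experiments with a dye swap each, although the titles number its 4 arrays as experiments 1 to 4. Each gene had 1 deposited value per array. A value is a log2 ratio, positive where RNA was higher in K-free cells. Base and direction are likely from the range of the values and the array titles, and are not stated. A ratio compares cultures of 1 time point and gives no level, it does not show a change in total messenger RNA, and in bulk RNA fewer cells with a transcript cannot be told apart from less of it per cell.

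Potassium is the main cation of the yeast cytosol, taken up by the transporters Trk1 and Trk2 with the proton pump Pma1 providing the membrane potential. Yeast cells under many kinds of stress raise a common set of genes for trehalose, glycogen, chaperones and redox defence, driven largely by the factors Msn2 and Msn4, and lower the genes for ribosomes and ribosome assembly. This environmental response is known to be transient in many conditions, strongest early and weaker once cells have adapted.

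Arrays of 1 time point correlated at r = 0.80 to 0.95 over genes at 60 min and 0.76 to 0.88 at 120 min, and arrays of different times at 0.53 to 0.79. They held 3913 to 5002 values each, and replicate 4 of 120 min stood out with 3 values at an identical maximum of 15.7. The alpha-specific genes, silent in cells of mating type a, were represented by SAG1 alone, whose ratios could not check a level. Since the labels do not say which arrays form a dye swap, arrays 1 and 2 and arrays 3 and 4 were averaged to 1 experiment each (n = 2 experiments per time for every mean and standard error below). P-values thus rest on no more than how far the 2 experiments of a time lay from each other. This spread was pooled over both times and drawn towards that of all genes. The gap between 2 arrays averaged to 1 experiment does not enter it. MET3, at 3.22 and 5.54 on replicates 3 and 4 of 120 min, had a standard error of 0.18 there.

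At 60 min, 1489 of 3939 genes (37.8%) differed from 0 by limma's moderated test with Benjamini-Hochberg adjusted p under 0.05, 690 of them higher (17.5%) and 799 lower (20.3%) in K-free cells. At 120 min the count was 1144 (29.0%), with 541 higher (13.7%) and 603 lower (15.3%). Of these, 877 passed at both times, 874 with the same sign. Counts of risen or fallen list members below are to be read beside the percentages of all genes given here. The difference between the times was tested in the same fit, and no gene passed (0 of 3939, lowest adjusted p = 0.332 by limma), while 505 genes (12.8%) had an unadjusted p under 0.05. The spread between experiments was large for this purpose: the median standard error of a difference was 0.31, and the differences of arrays 1 and 2 correlated with those of arrays 3 and 4 at r = 0.53 over genes. Other fits of the same arrays called between 0 and 523 genes, the latter when arrays 1 and 3 and arrays 2 and 4, which also carry opposite dyes, were taken as the experiments. Arrays 1 and 2 and arrays 3 and 4 correlated at r = 0.88 and 0.95 over genes at 60 min, and at 0.88 and 0.80 at 120 min. For arrays 1 and 3 and arrays 2 and 4 it was 0.80 and 0.86 at 60 min, and 0.76 and 0.82 at 120 min. With the experiment as a random block limma called 11: HSP104, SAM2, YDL023C, CKI1, TPO4, GPD1 and SAH1 lower at 120 min, and YDL050C, HPT1, PHO84 and ERG3 higher. No difference in this text passed the main test, with adjusted p from 0.332 to 0.988 by limma over the genes named by rule. Differences are therefore given as measured values, 120 min minus 60 min, and their standard errors ran from 0.25 to 1.89 over those genes. HSP26, OLE1, INO4, CHO1, CHO2, FAS1, PSD2, SAH1, PHO5, PHO89, HPT1, HXT4, HXT6, FUS1, HSC82, RPF1, CLB1, SUL1 and YDL050C fall outside that rule and were named after their values were seen.

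To describe the size of the movement, a gene is called apart here where no array at 120 min overlapped an array at 60 min and the mean difference was at least 1, a 2-fold shift. This rule was added after the test had called no gene, and it carries no p-value. It held for 267 genes (6.78%), 185 higher at 120 min (4.70%) and 82 lower (2.08%). Without the size limit the arrays did not overlap for 356 genes higher (9.04%) and 414 lower (10.5%). Of the 82 lower genes, 49 had been high at 60 min and stood nearer 0 at 120 min, 18 had been within 0.5 of 0 at 60 min, 8 stood farther below 0 and 7 ended at least 0.5 on the other side. Of the 185 higher genes, 79 had been low and stood nearer 0, 52 had been within 0.5 of 0, 43 ended at least 0.5 on the other side and 11 stood farther above. Fewer arrays overlap less readily, so list counts with arrays left out are to be read beside those over all genes. Without replicate 4 of 120 min, 5.81% of all genes were apart and higher and 3.40% lower. These shares were 9.60% and 6.07% without arrays 1 and 2 of 120 min, and 6.63% and 3.66% without arrays 3 and 4.

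**Figure D1:**
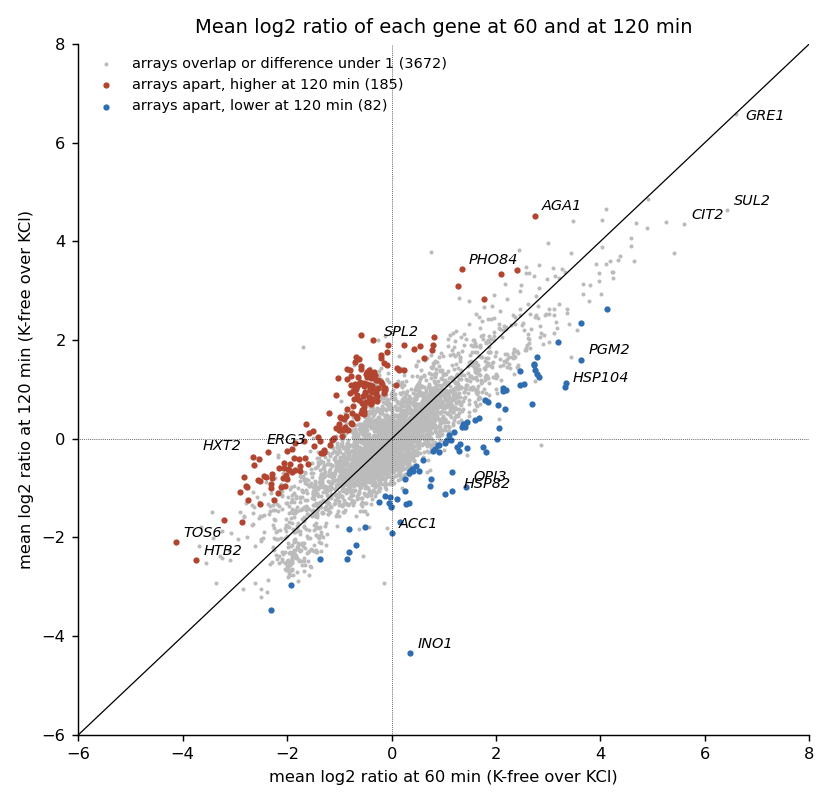
Each point is 1 of 3939 genes, with its mean log2 ratio (K-free over KCl) at 60 min on the horizontal axis and at 120 min on the vertical axis. The diagonal marks equal ratios. The 185 genes apart and higher at 120 min lie above it, the 82 apart and lower lie below it, and INO1 sits farthest from it at 0.36 and -4.35.

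The genes of reserve carbohydrate synthesis, high at 60 min, stood lower at 120 min throughout. The list of trehalose and glycogen genes had 18 measured members, of which 16 had risen at 60 min and 13 at 120 min. All 18 differences were below 0, as were 2044 of all 3939. The median over the members went from 2.37 to 1.55, and the median difference was -0.75, beside -0.03 over all genes tested. By array, the list's median was 2.23, 2.56, 2.27 and 2.69 at 60 min and 1.25, 1.17, 1.45 and 2.25 at 120 min, so only replicate 4 of 120 min reached into the range of the earlier arrays.

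PGM2, the main phosphoglucomutase, which makes glucose 1-phosphate for both polymers, read 3.82, 3.61, 2.93 and 4.16 at 60 min. At 120 min it read 1.13, 1.55, 1.33 and 2.40, below every earlier array. Its difference was -2.03 ± 0.30, a 4.08-fold fall of the ratio if the values are log2. TPS1, trehalose phosphate synthase, differed by -1.23 ± 0.29 from a mean of 2.73 at 60 min, and TPS2, its partner phosphatase, from 2.72 to 1.52. TSL1, a regulatory subunit of that complex, went from 2.79 to 1.66. These 4 were the members apart, and each had passed against 0 at both times. GSY1, a glycogen synthase, differed by -1.64 ± 0.43, but its replicate 4 at 120 min, at 1.72, overlapped the 60 min arrays. Without replicate 4 of 120 min, 8 of the 18 genes were apart rather than 4, and the median difference was -0.85, while without arrays 1 and 2 of 120 min it was -0.48 with 2 apart.

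The wider list of general stress genes followed with a smaller step. Of 43 measured members 41 had risen at 60 min and 39 at 120 min, 38 of them at both times, and the median went from 2.45 to 1.87. The median difference was -0.49, 31 of 43 differences were below 0, and 5 members were apart, all lower: GLK1 and SOL4, glucokinase and a 6-phosphogluconolactonase-like protein, PNC1, the nicotinamidase, TPS1 and TSL1. GLK1 read 3.28, 2.49, 2.45 and 2.92 at 60 min and 0.48, 1.03, 1.52 and 2.22 at 120 min. PNC1 read 2.38, 2.20, 2.51 and 2.74 and then 0.60, 0.86, 1.37 and 1.53. The general stress list was thus still high as a whole at 120 min, and its members apart stood at 1.09 to 1.66. Without replicate 4 of 120 min 11 members were apart and lower, while the share of all genes apart and lower was 3.40% rather than 2.08%. Without replicate 1, 2 or 3 of 60 min 8 members were apart. The median difference was -0.66 without replicate 4 of 120 min. When arrays were brought to an equal spread first, it was -0.21, with 2 members apart upwards and 5 downwards, and without arrays 1 and 2 of 120 min it was -0.24.

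Heat shock chaperones, which fold and disaggregate proteins, had a median near 0 at 120 min. Among 25 measured members, 12 had risen and 2 had fallen at 60 min, and 8 had risen and 6 had fallen at 120 min. The median went from 0.82 to -0.11, the median difference was -0.70, and 23 of 25 differences were below 0. The arrays' medians were 0.82, 0.63, 0.78 and 0.70 at 60 min and -0.20, -0.11, 0.17 and -0.12 at 120 min, without overlap. The median difference stayed between -0.79 and -0.62 over the 18 other settings for which it was computed (other normalizations and filters, and each array or experiment left out).

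HSP104, the disaggregase, read 3.35, 3.56, 2.80 and 3.58 at 60 min and 0.97, 0.75, 1.19 and 1.25 at 120 min. The groups were far apart, the difference was -2.28 ± 0.29, and the gene still passed against 0 at 120 min (adjusted p = 0.0203, limma). HSP82, an Hsp90 chaperone, read 1.13, 0.82 and 1.35 on replicates 1, 2 and 3 at 60 min and -0.30, -0.87 and -1.55 on replicates 1, 2 and 3 at 120 min. It had thus risen at 60 min and fallen at 120 min, by limma's adjusted p of 0.029 and 0.0449. Its near-identical partner HSC82 went from 0.02 to -0.68, and the spots may share signal. HSP78, the mitochondrial disaggregase, differed by -1.57 ± 0.35, STI1, a co-chaperone of Hsp90, by -1.41 ± 0.28, and SSE2, an Hsp70 exchange factor, by -1.23 ± 0.28, all 3 apart. HSP26, a small heat shock protein, went the other way, from 4.11 to 4.66. Thus single chaperones did not share 1 course, although the list's 5 members apart were all lower.

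Proteasome subunits, which degrade tagged proteins, showed a smaller shift in 1 direction. Of 30 measured, 14 had risen and 1 had fallen at 60 min, and 2 had risen and 2 had fallen at 120 min. The median went from 0.63 to 0.15, the median difference was -0.52 and 26 of 30 differences were below 0. RPT1, an ATPase of the cap, read 1.39, 0.65, 0.92 and 1.31 at 60 min and 0.43, 0.19, -0.21 and -0.47 at 120 min. RPN7, a lid subunit, went from 0.84 to -0.20, and these 2 were the members apart. The citrate cycle and retrograde genes, which feed amino acid synthesis from mitochondria, had a median difference of -0.64, with 8 of 16 risen at 60 min and 4 at 120 min, and 15 of 16 differences were below 0. The 1 difference above 0, and the 1 member apart, was RTG3, a transcription factor of the retrograde response. It went from -0.62 to 0.78 (standard error of the difference 0.56), and its array pattern was that of a set described below. The leading member of the list, CIT2, the peroxisomal citrate synthase, stayed far above 0 at both times and is described with the persisting genes.

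Genes of glycolysis and fermentation, as a list of 24, had a median of 0.20 at 60 min and -0.31 at 120 min, with 21 differences below 0. It held 2 kinds of course. GLK1 and PYK2, isozymes that are low in glucose-grown cells, stood lower from high ratios, PYK2 going from 2.14 to 0.96. TPI1 and GPM1, triose phosphate isomerase and phosphoglycerate mutase, were near 0 at 60 min and lower later. TPI1 read 0.34, -0.60, -0.36 and -0.31 at 60 min and -1.37, -0.89, -1.43 and -1.46 at 120 min (difference -1.05 ± 0.28). GPD1, the enzyme that starts glycerol synthesis, read between 1.07 and 1.81 at 60 min and -0.29, -0.01, -0.26 and -0.19 at 120 min, a difference of -1.63 ± 0.25. It had risen at 60 min and stood close to 0 later. The spot of YDL023C, an open reading frame next to GPD1 by its systematic name, gave 2.01 and -0.01. Also among the 12 lowest differences were FMP48, annotated as a mitochondrial kinase-like protein (2.70 to 0.70), ARE2, a sterol acyltransferase (1.75 to -0.17), FPT1 (3.35 to 1.13) and PAU1 (1.02 to -1.12), whose family of near-identical genes may share signal. TPO4, a polyamine exporter, went from 2.05 to 0.22.

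**Figure D2:**
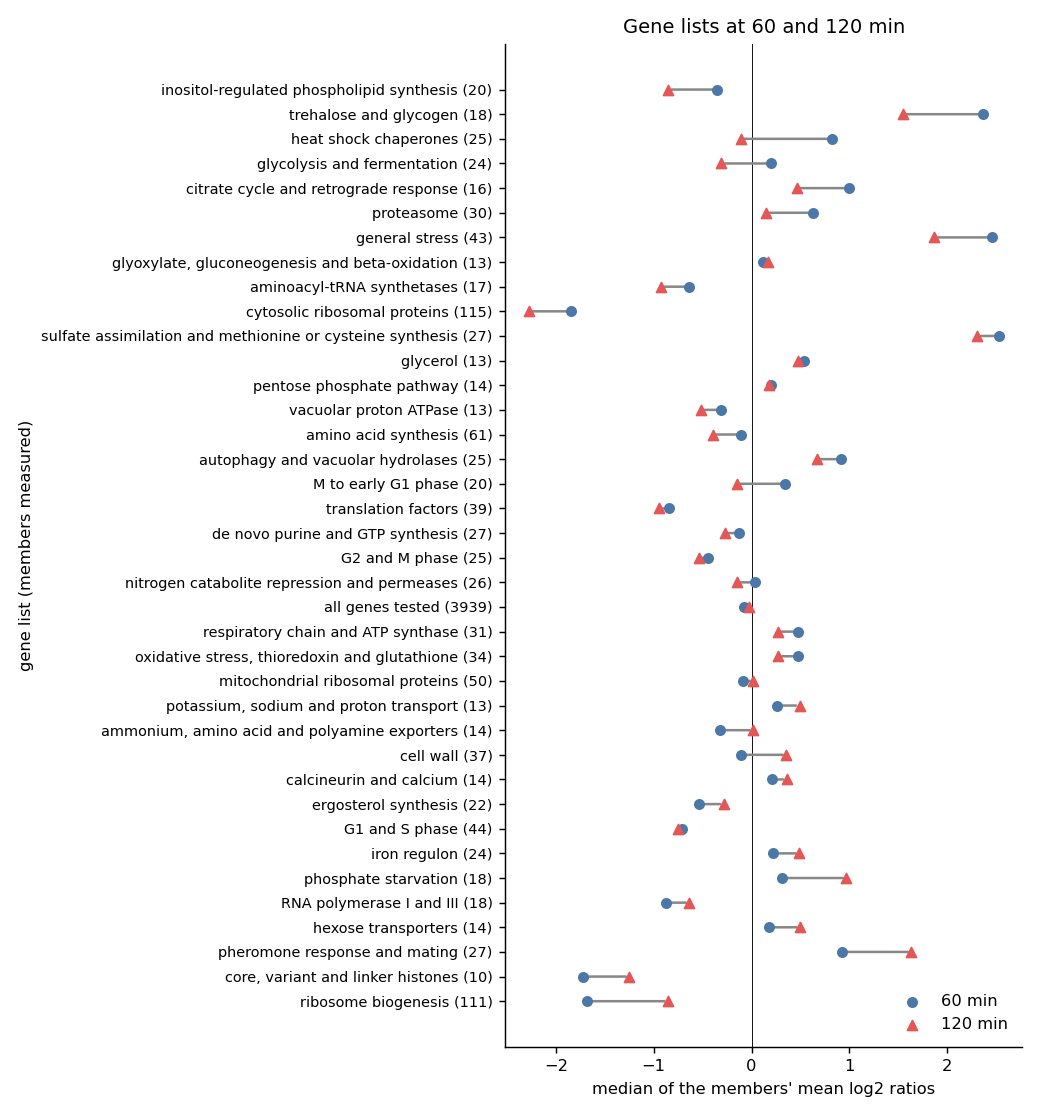
For each gene list (members measured in brackets) the circle is the median over members of the mean log2 ratio (K-free over KCl) at 60 min and the triangle the same at 120 min. Lists are ordered by the median of their members' differences, from -0.92 for inositol-regulated phospholipid synthesis at the top to 0.83 for ribosome biogenesis at the bottom. All genes tested are included for comparison.

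The list that stood lowest at 120 min relative to 60 min was phospholipid synthesis under inositol control. In yeast, the genes that make phosphatidylinositol, phosphatidylserine and phosphatidylcholine share activation by Ino2 and Ino4, which the repressor Opi1 counters when inositol and phospholipid precursors are ample. Of 20 measured members, 4 had risen and 4 had fallen at 60 min, whereas at 120 min none had risen and 13 had fallen. The median went from -0.36 to -0.85 with a median difference of -0.92. The arrays' medians were -0.08, -0.49, -0.24 and -0.31 at 60 min and -0.85, -0.89, -1.01 and -0.98 at 120 min. The groups did not overlap, and the median difference lay between -1.11 and -0.74 over 18 other settings.

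INO1, the inositol 3-phosphate synthase and the classical target of this control, read 0.78, -0.19 and 0.07 on replicates 1, 3 and 4 at 60 min. At 120 min it read -5.39, -4.90, -5.09 and -2.01. It was thus near the KCl culture on all measured arrays at 60 min and far below it on all arrays at 120 min, with replicate 4 much nearer 0 than the other 3. The difference, -4.71 ± 0.61 (95% interval -6.24 to -3.17), was the lowest of all 3939 genes and corresponds to a 26.1-fold lower ratio. At 10, 20 and 40 min INO1 had averaged 0.86, 0.14 and 0.30.

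The methylation branch to phosphatidylcholine shifted with it. OPI3, a phospholipid methyltransferase, read 1.97, 1.21 and 0.57 on replicates 1, 3 and 4 at 60 min and -2.05, -1.22, -0.75 and 0.14 at 120 min, and CHO2, the other methyltransferase, went from 0.75 to -0.81. CKI1, choline kinase of the salvage route, read 1.10, 0.96, 1.11 and 1.45 at 60 min and -0.78, -0.50, -0.89 and -0.55 at 120 min, with little spread in either group. SAM2, which makes the methyl donor S-adenosylmethionine, read 1.80, 1.25, 2.03 and 2.14 and then -0.78, -0.49, -0.33 and 0.51. SAH1, which removes the product of methylation, went from -0.82 to -2.29, and CHO1, phosphatidylserine synthase, from -0.68 to -2.14.

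Fatty acid synthesis showed the same direction at its entry. ACC1, acetyl-CoA carboxylase, read 0.54, 0.47, -0.66 and -0.33 at 60 min and -1.38, -2.07, -2.39 and -1.81 at 120 min, a difference of -1.92 ± 0.41, and FAS1, the beta subunit of fatty acid synthase, went from -0.50 to -1.79. With PSD2, a phosphatidylserine decarboxylase that stood at 1.10 and then 0.08, these made 9 members apart and lower. SAM2 is not counted among them, since it belongs to the sulfur list and not to this one. Other members did not follow: OLE1, the fatty acid desaturase, went from -1.35 to -0.46, and the activator INO4 stayed at -0.25 and -0.24. INM1, an inositol monophosphatase gene on chromosome VIII, was the 1 member apart and higher, and it belongs to a set on few chromosomes described below.

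**Figure D3:**
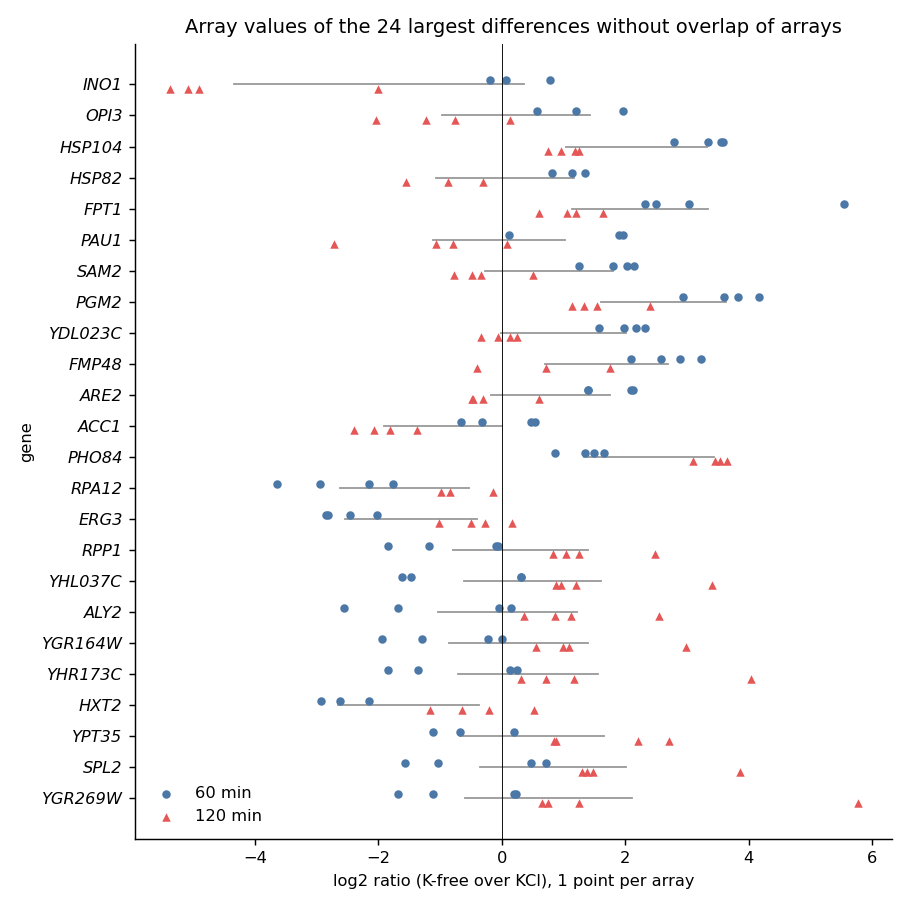
Each point is the log2 ratio (K-free over KCl) of 1 array, circles for 60 min and triangles for 120 min, for the 12 lowest and 12 highest differences among genes whose arrays did not overlap. The line joins the means. INO1 lies farthest to the left at 120 min, and for YGR269W, SPL2, YHR173C and YHL037C 1 triangle, replicate 3, lies far to the right of the other 3. Differences as large were left out for 2 lower and 5 higher genes because their arrays overlapped.

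Ribosome biogenesis had the highest median difference of the 37 lists with at least 8 measured members and stood much nearer 0 at 120 min. Its 111 measured genes encode assembly factors and enzymes of ribosomal RNA processing, and 89 of them had fallen at 60 min, against 25 at 120 min. The median went from -1.68 to -0.86, 103 of 111 differences were above 0, beside 1894 of all 3939, and the median difference was 0.83. Of the members, 19 were apart and higher, none lower.

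The arrays of 120 min differed in how far the list had returned. Its median was -1.45, -1.52, -1.93 and -1.84 at 60 min and -0.42, -0.39, -1.12 and -1.52 at 120 min. Arrays 1 and 2 of 120 min thus stood well above all 60 min arrays, while replicate 4 reached their range. Arrays 1 and 2 of 120 min also had the narrowest spread over all genes tested, with standard deviations of 0.92 and 0.84 beside 1.25 and 1.41 on arrays 3 and 4, and 1.05 to 1.26 at 60 min. With arrays brought to an equal spread the median difference was 0.81 and 24 members were apart, and the part of the spread in the contrast between arrays was not tested. The median difference was 1.02 between arrays 1 and 2 of the times and 0.55 between arrays 3 and 4, and between 0.41 (without arrays 1 and 2 of 120 min) and 1.13 over 18 other settings. Without replicate 4 of 120 min, 40 members were apart, without arrays 1 and 2 of 120 min 12 higher and 2 lower, and without arrays 3 and 4 of 120 min 63 higher and 1 lower. PUF6, which acts in assembly of the large subunit, read -2.99, -2.07, -2.73 and -2.26 at 60 min and 0.14, -0.34, -1.48 and -1.75 at 120 min. LTV1, an assembly factor of the small subunit, went from -2.90 to -1.09, and NSR1, nucleolin, from -3.22 to -1.64. The subunits specific to RNA polymerases I and III, which transcribe ribosomal RNA, transfer RNA and other small RNA, showed a median difference of 0.40, with 11 of 18 fallen at 60 min and 8 at 120 min, and of 0.13 without arrays 1 and 2 of 120 min. RPA12, a subunit of polymerase I, read -1.77, -2.16, -2.95 and -3.64 at 60 min and -0.15, -0.98 and -0.84 on replicates 2, 3 and 4 at 120 min. RPC25, a subunit of polymerase III, went from -2.31 to -0.92.

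The proteins of the cytosolic ribosome itself did not take that course. Of 115 measured genes, 114 had fallen at 60 min and 112 at 120 min, and the same 112 at both, beside 11.4% of all genes that persisted low. The median went from -1.85 to -2.28, and 98 of 115 differences were below 0 (median -0.47). No member was apart. The arrays' medians were -1.14, -1.91, -2.13 and -2.09 at 60 min and -2.04, -1.52, -2.55 and -2.96 at 120 min, so the groups overlapped. The median difference was 0.05 without arrays 3 and 4 of 120 min, and -0.93, with 54 members apart and lower, without arrays 1 and 2 of 120 min. Without arrays 1 and 2 of 60 min it was -0.14. Ribosomal protein genes come mostly as near-identical pairs whose spots may share signal. RPS22A, of the small subunit, stood among the 6 lowest persisting genes at -2.50 and -3.21, and RPS29A, also of the small subunit, differed upwards from -1.29 to -0.26. The aminoacyl-tRNA synthetases, which charge transfer RNA, went from 6 to 11 fallen of 17, with a median difference of -0.48 that was -0.07 without arrays 3 and 4 of 120 min. Translation factors stayed at a median of -0.84 and -0.95.

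**Figure D4:**
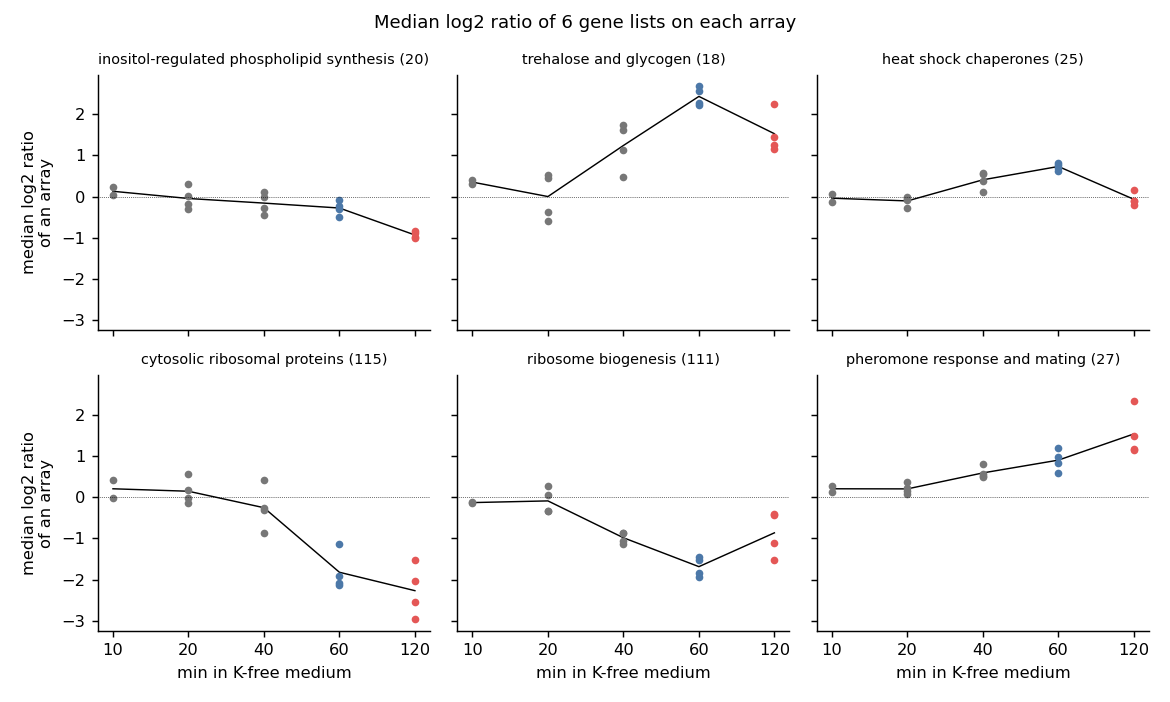
Each point is the median log2 ratio (K-free over KCl) of 1 gene list on 1 array, at 10, 20, 40, 60 and 120 min (evenly spaced, not to scale in time), with the number of genes in brackets and a line through the means of the arrays (grey points for 10 to 40 min, blue for 60 min, red for 120 min). At 120 min the phospholipid and chaperone lists lie below all 60 min arrays, ribosomal proteins overlap with them, and ribosome biogenesis lies above all 60 min arrays on replicates 1, 2 and 3. Mating genes do so on replicates 3 and 4.

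Genes for the uptake of nutrients other than potassium went both ways, and those of phosphate, sugar and iron are given here by list. PHO84, the high-affinity phosphate and proton symporter of the plasma membrane, read 1.49, 0.86, 1.66 and 1.35 at 60 min and 3.54, 3.46, 3.65 and 3.10 at 120 min. Every array at 120 min stood above every array at 60 min with a wide gap, and the difference was 2.10 ± 0.27 (95% interval 1.41 to 2.79), a 4.28-fold shift. It had risen at both times (adjusted p = 0.00806 and 0.00194, limma). SPL2, a regulator of low-affinity phosphate transport, was also apart, at -1.03, -1.57, 0.47 and 0.72 and then 1.38, 1.30, 3.86 and 1.48, but it lies on chromosome VIII and its array pattern is that of the set described below. PHO89, the sodium and phosphate symporter, went from -0.51 to 0.79, whereas the secreted phosphatase PHO5 stood at 2.36 and 2.46. The 18 phosphate genes had a median of 0.31 and 0.97, with 7 risen at 60 min and 9 at 120 min. The median difference of 0.38 was 0.15 without arrays 3 and 4 of 120 min and 0.72 without arrays 1 and 2.

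The 14 measured genes of hexose transport split into 8 differences above 0 and 6 below, with a median of 0.49, or 0.20 without arrays 3 and 4 of 120 min. HXT2, a high-affinity glucose transporter, read -2.93, -2.63 and -2.15 on replicates 1, 3 and 4 at 60 min and -0.21, -0.65, -1.17 and 0.52 at 120 min. It had been far below the KCl culture and was near it at 120 min (difference 2.28 ± 0.30). HXT4 and HXT6, also of higher affinity, differed upwards by 1.31 and 1.20 with overlapping arrays, while HXT5, which marks slow growth, went from 3.55 to 2.19, with replicate 4 of 120 min at 4.75 against 1.21 to 1.55 on the others. The HXT genes are alike in sequence, and their spots may share signal. 

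In the iron regulon, which takes up iron, the surface oxidase and permease were both nearer 0 at 120 min. FTR1, the permease, read -2.21, -2.66, -3.02 and -2.37 at 60 min and -0.53, -0.62, -1.48 and -0.74 at 120 min, and FET3, the multicopper oxidase bound to it, read -1.71, -2.17, -2.11 and -1.65 and then -0.56, -0.48, -1.30 and -0.39. SIT1, a siderophore transporter, went from -2.82 to -0.78 with a standard error of 1.01. These 3 were the members apart, but the list as a whole was not low. The median over 24 members was 0.22 at 60 min and 0.49 at 120 min, and 19 differences were above 0. Of the 24, 3 had risen and 3 fallen at 60 min, and 9 had risen and 1 fallen at 120 min. Over all genes, 17.5% had risen and 20.3% fallen at 60 min, and 13.7% and 15.3% at 120 min. Neither count of the list at 60 min exceeded those shares. The list's median difference was 0.32, or 0.20 without arrays 3 and 4 of 120 min. Of the sterol genes, ERG3, the C-5 desaturase, read -2.03, -2.82, -2.46 and -2.85 at 60 min and -0.28, 0.16, -0.50 and -1.02 at 120 min, and ERG25, the C-4 methyl oxidase, went from -1.97 to -0.64. Fet3 is a copper enzyme and Erg3 and Erg25 are iron enzymes, and all use oxygen. The 22 ergosterol genes as a list differed little, with 9 fallen at 60 min, 4 at 120 min and a median difference of 0.24, which was 0.11 without replicate 2 of 120 min and 0.002 without arrays 3 and 4 of 60 min. The 4 fallen at 120 min were near the share over all genes, 15.3%.

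The median of the mating genes stood farther above 0 at 120 min, with arrays that overlapped between the times. Cells of mating type a express AGA1 and AGA2, the anchor and the adhesive subunit of a-agglutinin, and pheromone signalling through Ste12 induces these and the fusion genes FUS1, FIG1 and FIG2. AGA1 read 3.28, 2.63, 2.76 and 2.31 at 60 min and 4.19, 4.25, 5.47 and 4.16 at 120 min, and AGA2 read 1.23, 0.84, 1.87 and 1.10 and then 2.16, 2.77, 4.34 and 3.12. Neither overlapped between the times, and replicate 3 of 120 min was the highest array for both. FIG1 went from -0.09 to 1.75, FIG2 from 2.10 to 3.35 and MFA2, a gene of the a-factor pheromone, from 0.63 to 1.64, which completes the 5 members apart. The arrays of FIG1 are given with the set on few chromosomes below. FUS1, induced by pheromone in the same way, went from 2.46 to 2.99 with overlapping arrays.

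Of the 27 measured mating genes, 15 had risen at 60 min and 18 at 120 min, none had fallen, and the median went from 0.92 to 1.64. The median difference of 0.53 dropped to 0.27 without replicate 3 of 120 min, with 4 members apart, and to 0.29 without replicate 4 of 60 min. It lay between 0.13 (without arrays 3 and 4 of 120 min) and 0.79 over 18 settings. The arrays' medians were 0.60, 0.84, 1.19 and 0.99 at 60 min and 1.18, 1.14, 2.35 and 1.49 at 120 min. Replicates 1 and 2 of 120 min thus lay within the range of the 60 min arrays, and replicates 3 and 4 lay above it.

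Cell cycle genes did not move as 1 group. The 10 measured histone genes, transcribed in S phase, were low at both times, 9 of 10 having fallen at each, and all 10 differences were above 0 (median 0.53). HTB2, a histone H2B gene, read -3.65, -4.09, -3.52 and -3.72 at 60 min and -1.82, -1.54, -2.99 and -3.48 at 120 min, so that arrays 1 and 2 of 120 min stood highest. HHF2, a histone H4 gene, went from -2.17 to -1.10. Among 44 genes of G1 and S phase, 17 had fallen at 60 min and 16 at 120 min. Apart and higher were TOS6, RFA3, GIC1, an effector of Cdc42 (-0.60 to 0.52), and RNR3, a ribonucleotide reductase subunit (-0.47 to 1.10). TOS6, a target of the G1 factors SBF and MBF, read -3.25, -3.41, -5.12 and -4.76 and then -2.31, -1.66, -2.36 and -2.05, and PCL1, a G1 cyclin, went from -3.56 to -2.52. RFA3, a subunit of the single-strand binding factor RPA, went from -2.51 to -1.33. The median of the 44 differences was 0.31, although the median ratio went from -0.71 to -0.76, so list summaries differed in sign here, and it was 0.20 without replicate 2 of 120 min and 0.06 without arrays 1 and 2 of 120 min.

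Genes of G2 and mitosis included 4 apart and lower and 2 apart and higher among 25. CHS2, the chitin synthase of the division septum, read 0.95, 0.09, -0.43 and 0.06 at 60 min and -1.41, -1.24, -2.37 and -1.72 at 120 min, which took it from the KCl level to well below it. CLB1, a mitotic cyclin, went from -1.38 to -2.44, CDC20, an activator of the anaphase-promoting complex, from 0.90 to -0.27 and WSC4, a cell wall sensor-like gene, from -0.86 to -2.44. GIN4, a bud neck kinase, was lower at 60 min and nearer 0 later (-2.87 to -1.68), and BUD3, a landmark of axial budding, went from -0.63 to 1.12. The arrays of BUD3 are given with the set on few chromosomes below. In the list of genes of M to early G1, MCM2, a helicase subunit loaded at replication origins, went from 0.34 to -1.30. The G2 and mitosis list's median difference was -0.07.

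The persisting genes, which passed against 0 at both times with 1 sign, numbered 874, or 22.2% of those tested (426 high, 10.8%, and 448 low, 11.4%). Persisting does not mean unmoved. For 243 of them (27.8%) the 95% interval of the difference lay within 1 of 0 on the log2 scale, and for the other 631 it reached past a 2-fold shift. Their median absolute difference was 0.36. Of the 874, 464 stood nearer 0 at 120 min and 409 farther. At least 2-fold ratios at both times were found for 311 high and 299 low genes.

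Sulfur assimilation had the highest median of the lists at both times. Of 27 measured genes of sulfate uptake and methionine or cysteine synthesis, 24 had risen at 60 min and 21 at 120 min, and the median went from 2.53 to 2.31. SUL2, a high-affinity sulfate permease, read 6.83, 8.13, 5.49 and 5.25 at 60 min and 4.64, 4.32, 3.84 and 5.73 at 120 min. MET3, ATP sulfurylase, read 5.45, 5.28, 5.21 and 5.10 and then 4.54, 4.27, 3.22 and 5.54, and MUP3, a low-affinity methionine permease, went from 5.41 to 3.77. For both SUL2 and MET3, the groups overlapped through replicate 4 of 120 min. SAM2 was the 1 member apart. SUL1, the other sulfate permease, went from 2.64 to 3.35, against the direction of SUL2. The list's median difference was -0.32 and was 0.01 without arrays 1 and 2 of 120 min, -0.15 without replicate 3 and -0.48 without replicate 4 of 120 min, and -0.05 after arrays were brought to an equal spread.

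GRE1, a hydrophilin induced by stress, read 6.67, 6.80, 6.15 and 6.77 at 60 min and 6.06, 5.80, 5.67 and 8.78 at 120 min, with a difference of -0.02 ± 0.48 and replicate 4 of 120 min far above the other 3. CIT2 read 5.63, 5.41, 5.38 and 6.02 and then 3.66, 3.92, 3.21 and 6.59. NQM1, a transaldolase of the stress response, stood at 4.92 and 4.86. Together with SUL2, MUP3 and MET3 these were the 6 persisting genes with the highest mean over both times. The lowest were TOS6, HTB2, PCL1, RPS22A, IMD3, an IMP dehydrogenase of GTP synthesis (-2.85 and -3.05), and YAR073W, or IMD1 of the same gene family (-2.30 and -3.48). Spots of the IMD family may share signal.

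Genes of potassium, sodium and proton transport stood close to their earlier ratios. The 13 measured members had a median difference of 0.02, with 4 risen at 60 min, 5 at 120 min and none fallen. TRK1, the main potassium transporter, read -0.05, 0.43, 0.07 and -0.23 at 60 min and 0.44, 0.25, 0.09 and 0.03 at 120 min. TRK2, its relative, stood at 0.26 and 0.49, and PMA1, the proton pump, at 0.79 and 0.50, none of which passed against 0. PTK2, a kinase that activates Pma1, had the lowest difference of the list, -0.68 ± 0.32, followed by PPZ2, a phosphatase that restrains Trk1 and Trk2 in concert with its relative PPZ1, at -0.58 ± 0.25, and both had risen at both times. ENA1, the sodium pump, had a value on 1 array at 120 min and on none at 60 min and was not compared. ACT1, actin, read 0.50, -0.47, -0.24 and -0.21 at 60 min and -0.40, -0.19, -0.28 and -0.43 at 120 min. The 95% interval of the difference was -0.56 to 0.85 for TRK1 and -0.88 to 0.44 for ACT1.

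Amino acid metabolism gave single genes rather than a list. LYS20 and LYS21, near-identical homocitrate synthases at the start of lysine synthesis, went from 0.02 and -0.01 to -1.37 and -1.38, and LYS9, a later enzyme of the route, from 0.10 to -1.23. LYS21 read 0.33, -0.37, 0.01 and -0.02 at 60 min and -1.71, -1.59, -1.69 and -0.52 at 120 min, with replicate 4 nearest to 0. GAP1, the general amino acid permease, differed by -1.31 ± 0.39, AGP1, a permease of broad range, by -1.07 ± 0.30, and CHA1, serine deaminase, by -1.06 ± 0.34. GAP1 went from 0.25 to -1.06 and AGP1 from 0.26 to -0.81, but both had been below 0 earlier. At 10, 20 and 40 min GAP1 had averaged -1.34, -2.13 and -1.25, and AGP1 -1.11, -1.45 and -0.75. The lists of amino acid synthesis (61 genes, median difference -0.12) and of nitrogen catabolite repression (26 genes, -0.05) stayed close to the -0.03 of all genes. The same held for the respiratory chain (31 genes, -0.02), mitochondrial ribosomal proteins (50 genes, 0.02), redox defence (34 genes, -0.01) and purine and GTP synthesis (27 genes, -0.07). Over 18 other settings these medians ranged, in that order, from -0.33 to 0.28, -0.12 to 0.12, -0.21 to 0.20 and -0.19 to 0.12. For the 13 genes of the glyoxylate cycle, gluconeogenesis and beta-oxidation the median difference was -0.49 although the median ratio was 0.06 higher at 120 min.

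Many of the highest differences lay on few chromosomes, a pattern that cuts across functions. On chromosomes VII, VIII and IX, 14.3%, 18.4% and 13.0% of the genes tested had a difference of at least 1, beside 3.39% to 11.5% on the others. Genes apart and higher made up 68 of 703 there (9.67%) and 117 of 3236 elsewhere (3.62%), although chromosomes II (7.60%) and V (7.10%) also exceeded IX (6.87%), whereas genes apart and lower made up 2.28% and 2.04%. Of the 68, 55 had been within 0.5 of 0 at 60 min or ended at least 0.5 on the other side, 12 had been low and stood nearer 0 and 1 had grown, against 40, 67 and 10 of the 117 elsewhere. These shares were computed after the highest differences had been seen, and what sets the chromosomes apart was not tested.

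The medians of the 68 genes followed an array pattern, which not every member shared (NSR1 is given below). They were -1.04 and -1.17 on replicates 1 and 2 of 60 min but 0.10 and -0.04 on replicates 3 and 4. On the arrays of 120 min they were 0.52, 0.62, 2.04 and 0.93, highest on replicate 3. That they lay higher at 120 min than at 60 min follows from the rule for genes apart. Over all 703 genes of these chromosomes the medians were -0.16, -0.26, 0.07 and 0.11 at 60 min. At 120 min those were -0.004, 0.22, 0.19 and 0.29. The 117 elsewhere had -1.20, -1.34, -0.81 and -0.97 at 60 min and 0.11, 0.26, 0.64 and 0.21 at 120 min. YGR269W, the highest difference among genes apart (2.70 ± 1.03), read -1.12, -1.69, 0.24 and 0.20 at 60 min and 0.65, 0.75, 5.78 and 1.25 at 120 min. RPP1, a subunit of RNase P and RNase MRP on chromosome VIII, read -1.18, -1.84, -0.09 and -0.06 and then 0.83, 1.25, 2.49 and 1.04. YPT35, an endosomal lipid-binding protein, and YHR173C, YGR164W and YHL037C, named by their systematic names alone, were also highest on replicate 3 of 120 min, with differences of 2.34, 2.27, 2.26 and 2.23. Genes elsewhere could show it as well: ALY2, an arrestin-like adaptor on chromosome X, read -1.69, -2.56, 0.14 and -0.04 and then 0.86, 1.12, 2.55 and 0.36. BUD3, on chromosome III, read -1.05, -1.80, -0.03 and 0.36 and then 0.81, 0.75, 2.28 and 0.62. FIG1, on chromosome II, read -0.67, 0.565 and 0.43 on replicates 1, 3 and 4 at 60 min, and 0.92, 1.14, 3.64 and 1.29 at 120 min. RTG3, also on II, read -1.34, 0.09 and 0.12 on replicates 2, 3 and 4, and then 0.28, 0.53, 1.32 and 1.01.

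The pattern also reached a gene that the strain does not carry. URA3, on chromosome V, read -1.19, -1.01, -0.27 and -0.32 at 60 min and -0.14, 0.31, 2.66 and 1.13 at 120 min, and met the rule for genes apart although BY4741 has no URA3. HIS3, of which the strain may keep a part, read 0.71, -0.06, 0.60 and 0.17 and then -0.32, 0.61, 0.96 and 0.82 and did not meet it. Without replicate 3 of 120 min, the share of genes apart and higher was 9.67% on the 3 chromosomes and 3.71% elsewhere. It was higher on the 3 chromosomes under all 18 settings, with at least 7.97% there and at most 6.89% elsewhere. Of the 19 biogenesis genes apart, RPF1, NSR1, NOP19 (-0.75 to 0.96) and IMP3 (-0.67 to 1.07) lie on these chromosomes, as do AGA2, ERG25, SPL2, GIC1 and RNR3. Their arrays were not alike. SPL2, RNR3 and IMP3 were lowest on replicates 1 and 2 of 60 min and highest on replicate 3 of 120 min. NSR1 read -0.64, -0.71, -2.61 and -2.61 at 120 min. At 60 min ERG25 read -1.44, -2.18, -2.20 and -2.04, and GIC1 -0.47, -0.75, -0.43 and -0.73. The part of the pattern in the differences of these genes was not tested. INO1, OPI3, HSP104, PGM2, PHO84, HXT2, ERG3, FTR1 and AGA1 lie on others.

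**Figure D5:**
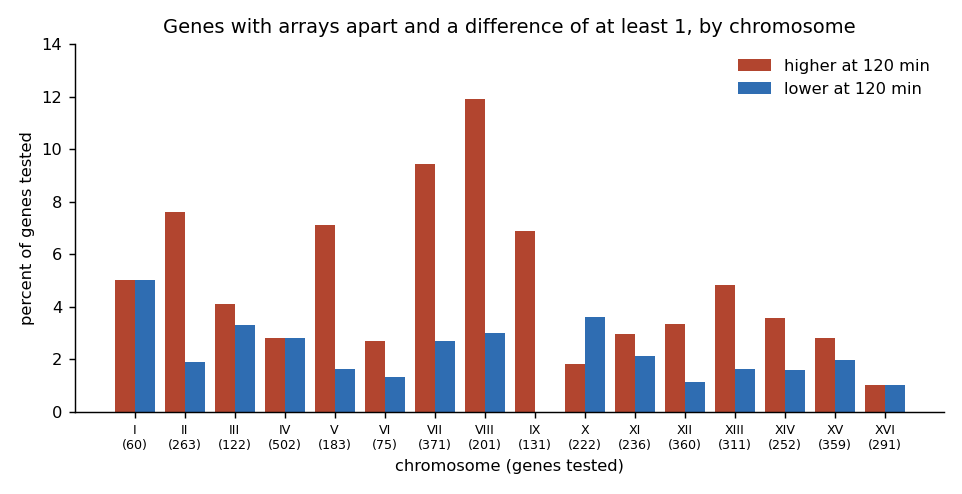
Bars give the percent of genes tested on each chromosome (number tested in brackets) whose arrays at 120 and 60 min were apart with a difference of at least 1, higher (red) and lower (blue) at 120 min shown side by side. Higher genes reach 9.43% on VII, 11.9% on VIII and 6.87% on IX, and lower genes stay between 0 and 5.00% on every chromosome.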

How the data were processed

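RNA of K-free and KCl-fed cells was compared on 18 spotted two-colour arrays, of which the 8 labelled 60 and 120 min are used here. As deposited, each gene has 1 log2 ratio per array, whose base and direction are likely and not stated. Per the labels, 8 µg of RNA was copied from oligo(dT) and dye-coupled, and the authors dropped spots smaller than 120 µm or dimmer than 100 units. How background and normalization were handled, and with which software, is not given in the sources used here. No count or depth exists for these values, and the number of arrays limits the precision.

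Of the table's 6212 identifiers, 5644 matched a RefSeq R64 locus tag or symbol exactly and 18 after ignoring case, and 550 were kept as given. Genes with values on at least 3 of 4 arrays at both times were tested. Arrays 1 and 2, and arrays 3 and 4, were averaged into 2 experiments per time, and limma 3.58.1 (R 4.3.3) was fitted across all 3939 genes on the 2 times, without a block, with Benjamini-Hochberg adjustment at 0.05. Contrasts were 120 min minus 60 min and each time against 0. The code of the fit was checked on simulated data in which both arrays of an experiment were alike. That check does not show how well the fit finds changes on these arrays. The members and the 39 gene lists were chosen with earlier results of these data known, so that list counts are descriptions.

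Genes named are the 12 highest and 12 lowest differences without overlap of arrays, up to 4 members of each list past the threshold (otherwise the 2 with the largest difference), the 6 highest and 6 lowest persisting genes, and 9 fixed genes. No gene met the rule's further classes, which required a difference past the threshold. The count of genes apart, up to 5 such members of each list, and the shares by chromosome were added after the data were seen. Alternatives were the pairing of arrays, arrays as replicates, a dye term, blocks, all 9 experiments, centring, scaling and quantile normalization, filters, thresholds and each array or experiment left out. Promoter and protein sequences were not used here.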

Additional observations from a re-analysis of the deposited data

Results flagged for a closer look

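Of 244 groups of 4 arrays, 1 gene at 1 time each, 20 held an array far from the other 3 by Dixon's criterion, and chance alone gives about 1 in 20. Replicate 3 of 120 min was the high array for AGA1 (5.47, nearest 4.25), FIG1 (3.64, nearest 1.29), SPL2 (3.86, nearest 1.48), BUD3 (2.28, nearest 0.81), GRX4 (0.66, nearest -0.16) and MRPL6 (2.06, nearest 0.74). It was also the high array for YGR269W (5.78, nearest 1.25) and YHL037C (3.40, nearest 1.21). Replicate 4 of 120 min was the high array for GRE1 (8.78, nearest 6.06), NQM1 (6.50, nearest 4.38), MUP3 (5.33, nearest 3.36), HXT5 (4.75, nearest 1.55), ARE2 (0.60, nearest -0.31), INO1 (-2.01, nearest -4.90) and LYS21 (-0.52, nearest -1.59). Replicate 2 of 120 min stood above the others for TPI1 (-0.89, nearest -1.37) and YTM1, a ribosome assembly factor (0.61, nearest -1.99).

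At 60 min, replicate 4 stood apart for BAP3, an amino acid permease (-1.07, nearest 0.43), and for DSE3, a daughter-cell gene (1.32, nearest 0.07). Replicate 3 stood apart for GSY1 (1.56, nearest 2.21). What sets these arrays apart was not tested.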

How the results depend on the processing

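With 2 experiments per time, the number of genes called depended on how arrays were joined. For the difference it was 523 (360 higher, 163 lower) with the other pairing of arrays, 102 (54 and 48) with each array as a replicate, 11 (4 and 7) with experiment as a random block, 40 (19 and 21) with a dye term, and 0 with all 9 experiments, where 849 had an unadjusted p under 0.05. At 120 min these fits called 2202, 2133, 1741, 2067 and 1817 genes, and the other pairing called 2252 at 60 min. Persisting genes numbered 1372, 1460 and 1447 with the other pairing, each array and the dye term. The fits with each array as a replicate and with a dye term took single arrays as units. The 2 arrays of a dye swap compare the same 2 RNAs, so these fits can call too many genes. With a replicate block the difference was called for 176 genes (144 and 32; 1962 at 120 min, 1313 persisting) over experiments and for 466 (319 and 147; 2136 and 1333) over array numbers. Same-numbered arrays of the times correlated in their deviations from the time means at r = 0.048 to 0.49, and 1 of 4 correlated best with its own number, so the numbers were not taken as pairs. The difference between arrays 1 and 2 and arrays 3 and 4 at 60 min did correlate with that at 120 min (r = 0.43 over genes), a hint from the data of a link between the experiments that the labels do not give. At a threshold of 0.01 the counts were 470 at 60 min, 282 at 120 min and 207 persisting, and at 0.1 it was 1752 at 120 min. After quantile normalization 142 genes were apart and lower.

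Leaving out 1 array gave 0 genes for the difference, between 1238 and 1513 at 60 min, between 957 and 1160 at 120 min and between 706 and 900 persisting, with 185 to 272 apart and higher and 76 to 134 apart and lower, the latter without replicate 4 of 120 min. Leaving out 1 experiment gave 0 for the difference, from 17 to 1397 genes at 60 min, 31 to 823 for 120 min, 17 to 677 persisting, 232 to 378 apart and higher and 109 to 239 apart and lower. An arm then held 1 experiment, assumed to vary like the others. Why the counts moved was not tested beyond the smaller number of samples.

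Differences near 0 or unlike between the experiments changed sign under some alternatives. NQM1 was 0.39 after scaling and 0.18 after quantile normalization, and GRE1 was 0.59 after scaling. With single arrays or experiments left out, the difference ranged from -0.61 to 0.49 for NQM1, from -0.80 to 0.76 for GRE1, from -0.46 to 0.023 for ACT1, from -0.21 to 0.53 for HIS3 and from -0.10 to 0.56 for TRK2. The range was -0.84 to 0.27 for PMA1, -0.83 to 0.43 for IMD3, -1.61 to 0.20 for RPS22A and -0.75 to 0.17 for SAG1. It was -4.47 to 0.89 for PCK1 of gluconeogenesis, -0.29 to 1.95 for URA7, a CTP synthase, and -0.022 to 1.95 for ATG41 of autophagy.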
